A study of Mus musculus with 8 samples.

Results

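The mouse mitochondrial genome holds 37 genes, and all 37 were found among the 49585 genes of the deposited tables by their GENCODE M21 symbols, which start with mt-. They are 13 messenger RNA genes, 2 ribosomal RNA genes and 22 transfer RNA genes. The tables come from the dorsal horn of lumbar segments 4 to 6 of the spinal cord of adult C57BL/6J mice. There were 4 libraries from wild-type mice and 4 from miR-96 knock-out mice, made from polyadenylated RNA and given as FPKM (fragments per kilobase of transcript, scaled to the mapped fragments of the library). The series asks whether miR-96, a microRNA, restrains voltage-gated sodium channels and so prevents allodynia, pain from harmless touch. The labels do not say how the allele was made, or whether each library came from its own animal. Each p-value therefore rests on the spread among the 8 libraries, part of which may be technical.

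Mitochondria keep a small circular genome that codes for core subunits of the respiratory chain, the machinery that makes most of a neuron's ATP. Both strands are transcribed as long precursors from which transfer RNAs are cut out, and most of the messenger and ribosomal RNAs left receive short poly(A) tails. Neighbouring genes share a precursor, and their RNAs can still differ in level because they are processed and decay at different rates.

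Depth was estimated from the steps in which low FPKM values move, at 30320000 to 40850000 fragments per library. Wild type replicate 1 stood apart from the others: it held the highest value of the 8 libraries for 30.0% of the 15061 tested genes and the lowest for 32.0%. Its haemoglobin and other blood genes summed to 199 FPKM against 5.96 to 39.3 in the other 7. All 16 dorsal horn neuron markers checked had a mean of at least 1 FPKM, summing to 939 to 1195 FPKM in each library. Some markers of other cells varied more, with overlapping groups. Schwann cell genes summed to 453.5 to 1070 FPKM, motor neuron genes to 11.5 to 56.6 and meningeal genes to 63.2 to 124. The highest Schwann cell sums were in wild type replicate 2 (1070) and knock-out replicate 3 (1060). The part of such tissue differences in the results below was not tested. Mir96 itself was listed at 0 FPKM in all 8 libraries, and libraries of this kind do not capture mature microRNAs, so the genotype labels could not be checked by it. Liver plasma protein genes had a summed level of 26.7 to 52.7 FPKM in knock-out against 1.29 to 10.6 in wild type. Of these, 6 of 6 had an unadjusted limma p under 0.05, where 5.52% of all tested genes did, and 0 passed after adjustment. The liver list was chosen with earlier results of these data known, so its count is not independent of the choice. The part of these liver genes in the results below was not tested.

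Some members have near-identical copies in nuclear chromosomes, and the sequences below, from GENCODE M21 transcripts (GRCm38), show how the genes differ in this. Each was printed 5′ to 3′, 60 bases per gene, with mismatches between gene and copy in capitals. The copies are annotated as pseudogenes. The first is a gene whose copy matched throughout the aligned 681 bases, the next pairs differed at 1 aligned base, and the last pairs differed at many. For mt-Co1 and Gm29216 the alignment covers only 483 bases, from base 1063 to base 1545 of the gene. Its best copy over all 1545 bases, Gm13340 on chromosome 2, differed at 37.
mt-Co2 (chrM:7013-7072, plus strand) and its copy Gm28661 (chr1:24615506-24615565, minus strand): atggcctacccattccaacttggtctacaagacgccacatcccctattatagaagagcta
mt-Nd3 (chrM:9459-9518, plus strand): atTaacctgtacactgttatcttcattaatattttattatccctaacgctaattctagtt
Gm28438 (chr1:24613060-24613119, minus strand): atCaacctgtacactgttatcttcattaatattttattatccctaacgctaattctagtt
mt-Co1 (chrM:6390-6449, plus strand): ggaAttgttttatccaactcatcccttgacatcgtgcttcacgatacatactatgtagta
Gm29216 (chr1:24616129-24616188, minus strand): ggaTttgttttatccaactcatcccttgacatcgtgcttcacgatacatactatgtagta
mt-Nd6 (chrM:14011-14070, minus strand): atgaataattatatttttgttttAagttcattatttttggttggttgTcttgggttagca
Gm11408 (chr4:80003855-80003914, minus strand): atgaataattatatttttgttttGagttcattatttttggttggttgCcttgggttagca
mt-Cytb (chrM:14146-14205, plus strand): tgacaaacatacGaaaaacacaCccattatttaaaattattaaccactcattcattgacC
Gm11410 (chr4:80003990-80004049, plus strand): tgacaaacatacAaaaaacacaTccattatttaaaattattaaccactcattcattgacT

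Taken over their full alignments, mt-Nd6 and Gm11408 differed at 33 of 519 bases and mt-Cytb and Gm11410 at 81 of 1142. The 7 copies on chromosome 1 (chr1:24611535-24616197, all on the minus strand) matched the mitochondrial genome from chrM:6390 to chrM:11042 in the same order, with 2 mismatches in 4140 aligned bases. Of these 7, Gm28661 (mt-Co2), Gm10925 (mt-Atp6), Gm28437 (mt-Co3), Gm10222 (mt-Nd4l) and Gm28439 (the first 876 bases of mt-Nd4) had 0 mismatches. The sum of mitochondrial and nuclear position was the same for the first 5 copies and differed by 1 for Gm10222 and Gm28439, so they lie in 1 collinear block. mt-Atp8 lies in this block between mt-Co2 and mt-Atp6, but the bases of chromosome 1 between Gm28661 and Gm10925 belong to no annotated transcript and were not compared here.

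The levels of the messenger and ribosomal RNAs fell into 2 ranges, which were described after the values had been seen. For mt-Co2, mt-Co3, mt-Atp6, mt-Nd3 and mt-Nd4l, between 97.6% (mt-Nd3) and 99.9% (mt-Co3) of all 100-base windows recurred unchanged in an annotated transcript of another chromosome, and these 5 genes held 12.9 to 166 FPKM in single libraries. The 9 genes mt-Rnr1, mt-Rnr2, mt-Nd1, mt-Nd2, mt-Nd4, mt-Nd5, mt-Nd6, mt-Co1 and mt-Cytb held 660 to 9518 FPKM, and between 0% and 60.8% of their 100-base windows recurred. mt-Nd4 was the gene at 60.8%, and mt-Co1 had 30.8% and mt-Nd2 3.19%. mt-Atp8 was outside this split, with 0% of its windows found in annotated transcripts and a mean of 4.88 FPKM, the lowest of the 15 genes. Reads from identical stretches cannot be assigned by their sequence, how the aligner and Cufflinks treated them is not given in the sources used here, and its part in these levels was not tested.

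**Figure D1:**
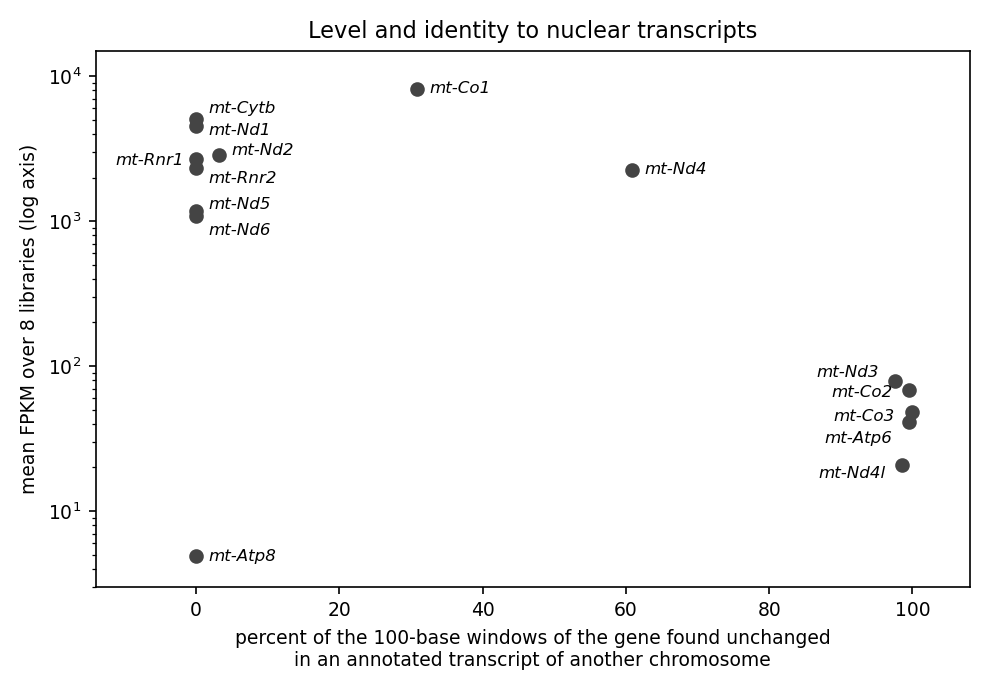
Mean FPKM over 8 libraries (log axis) of the 15 messenger and ribosomal RNA genes against the percent of their 100-base windows found unchanged in an annotated transcript of another chromosome. The 5 genes at the right edge, from mt-Nd3 at 79.2 FPKM to mt-Nd4l at 20.8, lie below the 9 genes with 1090 to 8181 FPKM, and mt-Atp8 lies alone at the lower left.

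Within each library the mitochondrial genes were among the most abundant. Between 4 and 7 of the 10 genes with the highest FPKM were members, and mt-Co1, the catalytic subunit of cytochrome c oxidase (complex IV), was first of all genes in 7 of 8 libraries. The 37 genes made up 7.22%, 3.95%, 4.21% and 5.24% of total FPKM in wild type replicates 1 to 4 and 5.33%, 5.38%, 4.04% and 5.44% in knock-out replicates 1 to 4. The groups overlapped, at 5.16 ± 1.49% (SD, n = 4) in wild type and 5.05 ± 0.670% in knock-out. Wild type replicate 1 had the largest share and wild type replicate 2 the smallest. Without replicate 1 the wild-type mean was 4.47 ± 0.685%, so that the difference of knock-out minus wild type moved from -0.109 to 0.581 percentage points, and the groups still overlapped. Leaving out other libraries also moved this difference. It was -0.511 without wild type replicate 2, -0.425 without wild type replicate 3 and 0.226 without knock-out replicate 3. As fragments, estimated from FPKM and gene length, the 37 genes took 3.02% to 5.76% of each library.

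**Figure D2:**
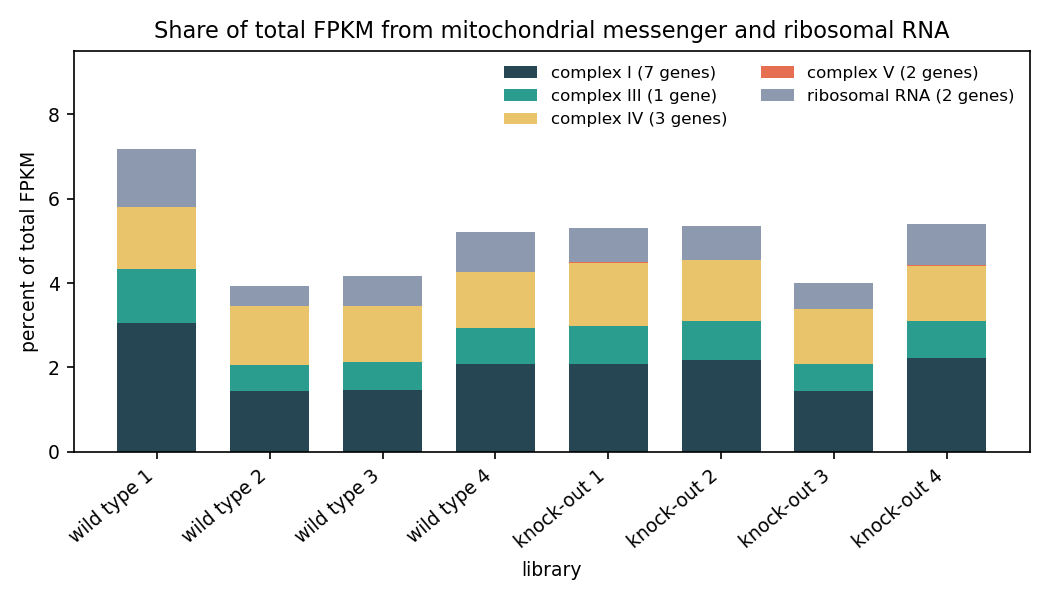
Percent of total FPKM in each of the 8 libraries, stacked by the respiratory complex of the messenger RNAs and by ribosomal RNA. Wild type 1 is the tallest bar, and complex V is barely visible.

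Of the 22 transfer RNA genes, 21 were listed at 0 FPKM in every library. The exception was mt-Tp, the transfer RNA for proline, which lies on the light strand at chrM:15356-15422, last before the control region of the genome, and is printed because no other transfer RNA gene gave a value.
mt-Tp: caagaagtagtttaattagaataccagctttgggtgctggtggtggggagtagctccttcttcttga
It held 312, 157, 233 and 241 FPKM in wild type replicates 1 to 4 and 103, 207, 274 and 207 in knock-out. The groups overlapped, knock-out replicate 1 was the lowest and wild type replicate 1 the highest. FPKM of a gene of 67 bases in a library of long RNA is uncertain.

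The 2 ribosomal RNAs form the cores of the small (mt-Rnr1, chrM:70-1024) and large (mt-Rnr2, chrM:1094-2675) subunits of the mitochondrial ribosome. mt-Rnr1 was at 5070, 1453, 2342 and 2855 FPKM in wild type and 2538, 2413, 1916 and 3024 in knock-out. Wild type held both extremes, in replicates 1 and 2, and knock-out lay between them. mt-Rnr2 followed, with 4058, 1307, 1942 and 2561 FPKM in wild type and 2206, 2131, 1694 and 2656 in knock-out, and a ratio to mt-Rnr1 of 0.80 to 0.899 in all 8 libraries. Against the summed messenger RNAs, ribosomal RNA stood at 0.132 in wild type replicate 2 and at 0.173 to 0.236 in the other 7 libraries.

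Complex I, the NADH dehydrogenase at the start of the respiratory chain, takes 7 of its core subunits from the mitochondrial genome. mt-Nd1 (chrM:2751-3707), a membrane subunit, held 7999, 3649, 3613 and 4118 FPKM in wild type and 4315, 4457, 3457 and 4439 in knock-out. Outside wild type replicate 1 it varied by no more than 1.29-fold between libraries. mt-Nd2 (chrM:3914-4951) was at 4213, 2057, 2027 and 3054 FPKM in wild type and 3036, 3265, 2022 and 3237 in knock-out, and mt-Nd4 (chrM:10167-11544) at 4895, 1373, 1526 and 2142 and at 2216, 2210, 1453 and 2300. In both, the groups overlapped, and wild type replicates 2 and 3 and knock-out replicate 3 were the 3 lowest libraries.

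mt-Nd5 (chrM:11742-13565), the longest messenger RNA gene of the set, held 934, 864, 949 and 1471 FPKM in wild type and 1310, 1424, 875 and 1594 in knock-out. It was the one member whose value in wild type replicate 1 lay below the median of the other 7 libraries, at 0.713 times that median. Its ratio to the neighbouring mt-Nd4 was 0.191 in that library and 0.591 to 0.693 in the others. mt-Nd6 (chrM:13552-14070) is the single messenger RNA gene on the light strand and overlaps mt-Nd5 by 14 bases on the opposite strand. It held 2053, 660, 743 and 1178 FPKM in wild type and 986, 1108, 674 and 1316 in knock-out. The ratio of mt-Nd6 to mt-Nd5 was 2.20 in wild type replicate 1 and 0.753 to 0.826 in the other 7 libraries. Whether counting used strand is not given in the sources used here, so reads of mt-Nd6 and of heavy-strand RNA across it cannot be told apart.

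The small subunits mt-Nd3 (chrM:9459-9806) and mt-Nd4l (chrM:9877-10173) belong to the copied block. mt-Nd3 was at 166, 55.5, 45.4 and 64.9 FPKM in wild type and 84.4, 62.8, 74.1 and 80.2 in knock-out. mt-Nd4l was at 28.4, 18.8, 12.9 and 17.2 FPKM in wild type and 25.9, 16.7, 16.4 and 30.2 in knock-out. In both genes the groups overlapped, with and without wild type replicate 1. mt-Nd4l shares its messenger RNA with mt-Nd4, as known from textbooks, yet its FPKM was 0.00581 to 0.0137 times that of mt-Nd4.

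mt-Cytb (chrM:14145-15288) codes for cytochrome b, the mitochondrial subunit of complex III, which passes electrons on to cytochrome c. It held 8586, 3722, 4037 and 4974 FPKM in wild type and 5115, 5310, 3779 and 5027 in knock-out, again with wild type replicate 1 alone at the top. Its ratio to mt-Nd1 stayed between 1.02 and 1.21 in all 8 libraries.

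Complex IV reduces oxygen, and its 3 core subunits are mitochondrial. mt-Co1 (chrM:5328-6872) was the steadiest member, with 9518, 8368, 7973 and 7659 FPKM in wild type and 8474, 8277, 7655 and 7528 in knock-out, a range of 1.26-fold. Across the other 15 genes above 0 the highest library exceeded the lowest by 1.84-fold (mt-Nd5) to 7.87-fold (mt-Co3). mt-Co1 therefore made up 24.6% of messenger FPKM in wild type replicate 1 and 40.1% in replicate 2, with 29.2% to 38.0% in the other 6 libraries.

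mt-Co2 (chrM:7013-7696), the subunit that receives electrons from cytochrome c, held 134, 29.3, 32.1 and 42.6 FPKM in wild type and 116, 42.8, 95.9 and 52.8 in knock-out. mt-Co3 (chrM:8607-9390) held 49.1, 22.5, 19.2 and 17.3 FPKM in wild type and 57.4, 28.7, 55.5 and 136 in knock-out. In both genes all 4 knock-out libraries lay above wild type replicates 2 to 4, and wild type replicate 1 lay within or above the knock-out range. For mt-Co3, knock-out replicate 4 was the highest library.

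mt-Atp6 (chrM:7927-8607) and mt-Atp8 (chrM:7766-7969) encode parts of the proton channel side of the ATP synthase, complex V, and overlap by 43 bases. mt-Atp6 held 64.1, 21, 17.6 and 23.6 FPKM in wild type and 69.6, 28.9, 43.1 and 60.1 in knock-out. mt-Atp8 held 8.88, 1.78, 2.40 and 2.66 FPKM in wild type and 4.87, 5.32, 2.76 and 10.3 in knock-out. The pattern was that of mt-Co2: knock-out was above wild type replicates 2 to 4, and wild type replicate 1 was among the high libraries. For mt-Atp8 the estimates correspond to 14 to 64 fragments per library, so its values carry the largest counting error of the set.

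**Figure D3:**
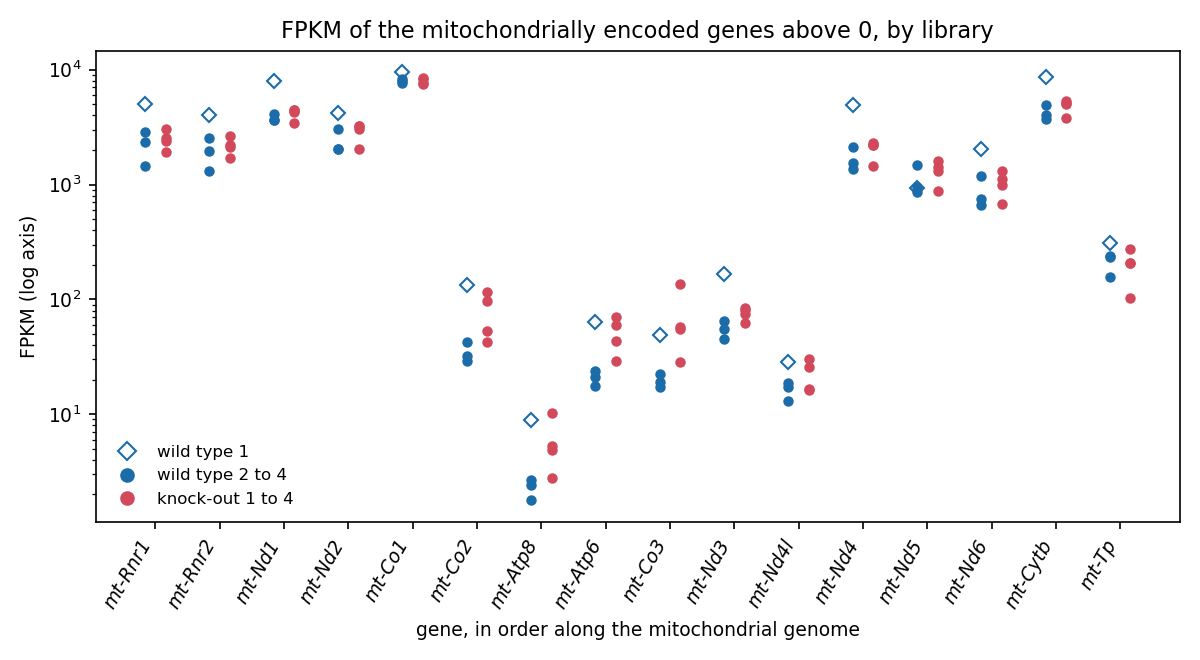
FPKM (log axis) of the 16 members above 0 in order along the mitochondrial genome, 1 point per library, wild type at the left and knock-out at the right of each gene. Wild type 1 (open diamonds) is the highest wild-type library in 15 of 16 genes, and mt-Co2 to mt-Nd4l form the low stretch.

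Knock-out was then compared with wild type with limma on log2(FPKM + 1), over the 15061 genes with a mean of at least 1 FPKM. On this scale the change of low genes such as mt-Atp8 is understated. The test covered 16 members, the 21 transfer RNA genes at 0 being left out. No member passed an adjusted p of 0.05 (0 of 16 in limma, 1 at unadjusted p under 0.05), and 0% of all genes did, with 5.52% at unadjusted p under 0.05, and 3.69% when counted only where knock-out was higher, as in mt-Co3. In 8 of 16 members the log2 fold change was above 0, against 53.1% of all tested genes, and the median was -0.0077 against 0.014 for all genes. The groups overlapped in all 16 members, and did not overlap in 3.03% of tested genes.

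The 9 abundant genes had log2 fold changes near 0 or of either sign. Mean mt-Nd1 was 4845 ± 2115 FPKM (SD, n = 4) for wild type against 4167 ± 477 for knock-out, which is -0.14 (SE 0.25) on the log2 scale. mt-Cytb differed by -0.079 (SE 0.25), mt-Co1 by -0.067 (SE 0.12), mt-Rnr1 by -0.12 (SE 0.32), mt-Rnr2 by -0.080 (SE 0.30), mt-Nd4 by -0.11 (SE 0.36), mt-Nd6 by -0.073 (SE 0.34), mt-Nd2 by 0.069 (SE 0.25) and mt-Nd5 by 0.30 (SE 0.22). The largest of the 9 relative to its SE was that of mt-Nd5.

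The member of lowest p was mt-Co3, with means of 27.0 ± 14.9 FPKM for wild type and 69.4 ± 46.4 for knock-out. Its log2 fold change was 1.24 (SE 0.44), with a limma unadjusted p of 0.0197 and adjusted p of 0.62. mt-Atp6 followed with 31.6 ± 21.8 and 50.4 ± 18.1 FPKM (0.78, SE 0.39, limma adjusted p = 0.62). mt-Co2 (0.55, SE 0.47), mt-Atp8 (0.55, SE 0.42), mt-Nd4l (0.20, SE 0.25) and mt-Nd3 (0.051, SE 0.34) had log2 fold changes above 0 and did not pass, and mt-Tp was at -0.29 (SE 0.29).

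These values moved when wild type replicate 1 was left out. Without it, 14 of 16 members had a log2 fold change above 0, against 50.4% of all genes, and the median was 0.27. Again 0 of 16 passed the adjusted threshold in limma, where 0% of all genes did. Unadjusted p was under 0.05 for 5 of 16 members, all higher in knock-out, against 2.5% of tested genes in that direction and 3.74% in either. These 5 were mt-Co3 (1.56, SE 0.43), mt-Atp6 (1.18, SE 0.27), mt-Co2 (1.03, SE 0.33), mt-Atp8 (0.95, SE 0.32) and mt-Nd3 (0.45, SE 0.13), each with a limma adjusted p of 0.83. Of these, mt-Co3, mt-Atp6, mt-Co2 and mt-Nd3 have an annotated copy in the block on chromosome 1. mt-Atp8 lies between mt-Co2 and mt-Atp6, but only the 43 bases it shares with mt-Atp6 matched an annotated transcript of that block. For mt-Co2, mt-Atp8, mt-Atp6 and mt-Co3, the groups did not overlap without wild type replicate 1. This held for 2.47% of tested genes with knock-out higher and 4.31% in either direction. The gap was small for mt-Co2, with wild type replicate 4 at 42.6 FPKM and knock-out replicate 2 at 42.8. It was also small for mt-Atp8, with wild type replicate 4 at 2.66 and knock-out replicate 3 at 2.76, an estimated 20 and 23 fragments. Leaving out a different library gave other counts of members above 0. There were 6 of 16 without wild type replicate 2 (median -0.070, 51.9% of all genes) and 6 without replicate 3 (-0.12, 53.5%). Without knock-out replicate 3 there were 12 of 16 (median 0.085, 51.2% of all genes). Each remaining omission gave 7 or 8 of 16. When libraries were instead weighted by their estimated spread, 2 of 16 members passed limma's adjusted threshold, mt-Nd2 (0.51) and mt-Atp8 (0.95), where 10.8% of all genes did.

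**Figure D4:**
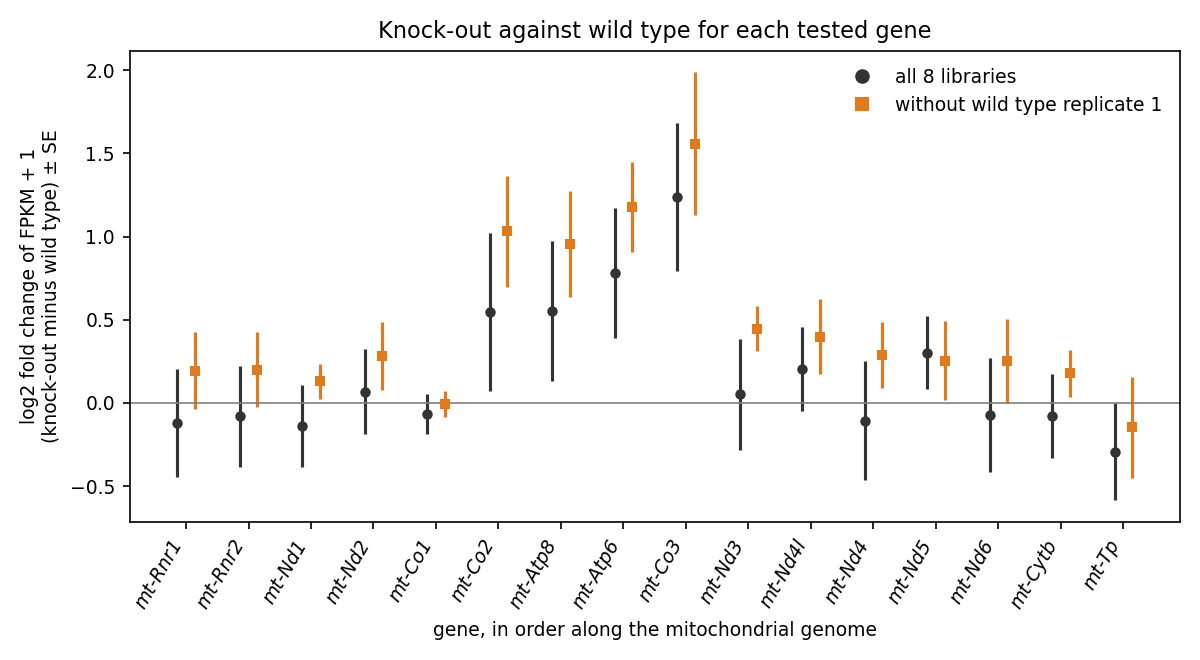
Log2 fold change of FPKM + 1, knock-out minus wild type, with the limma SE, for the 16 tested members in order along the genome, with all 8 libraries (circles) and without wild type replicate 1 (squares). The stretch from mt-Co2 to mt-Co3 stands highest in both, and leaving out the library raises 15 of the 16 estimates; that of mt-Nd5 is lower.

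The copies on chromosome 1 had values of their own, which followed those of the member closely for mt-Co2 and less so for the other genes. Gm28661 held 57.5, 15.9, 15.8 and 19.9 FPKM in wild type and 53.4, 22.4, 43.9 and 29.1 in knock-out. mt-Co2 was 1.81 to 2.32 times as high in every library, so both had their high and low libraries in common. mt-Atp6 was 0.444 to 1.91 times its copy Gm10925, and mt-Co3 was 0.908 to 1.45 times its copy Gm28437 in all libraries but knock-out replicate 4, where it was 6.80 times. mt-Co1, in contrast, was 55.9 to 449 times as high as Gm29216, and mt-Nd4 128 to 527 times as high as Gm28439. In limma 6 of 7 copies had a log2 fold change above 0 (53.1% of all tested genes) and 0 passed. Unadjusted p was under 0.05 for 2 of 7 (5.52% of all genes), Gm10222 (1.02, SE 0.24) and Gm28439 (0.68, SE 0.25). Without wild type replicate 1 the log2 fold change was above 0 in 7 of 7 (50.4% of all genes), with 6 at unadjusted p under 0.05 (3.74% of all genes) and a median of 0.89. Whether a fragment came from the mitochondrial gene or its copy cannot be told apart for the identical stretches.

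**Figure D5:**
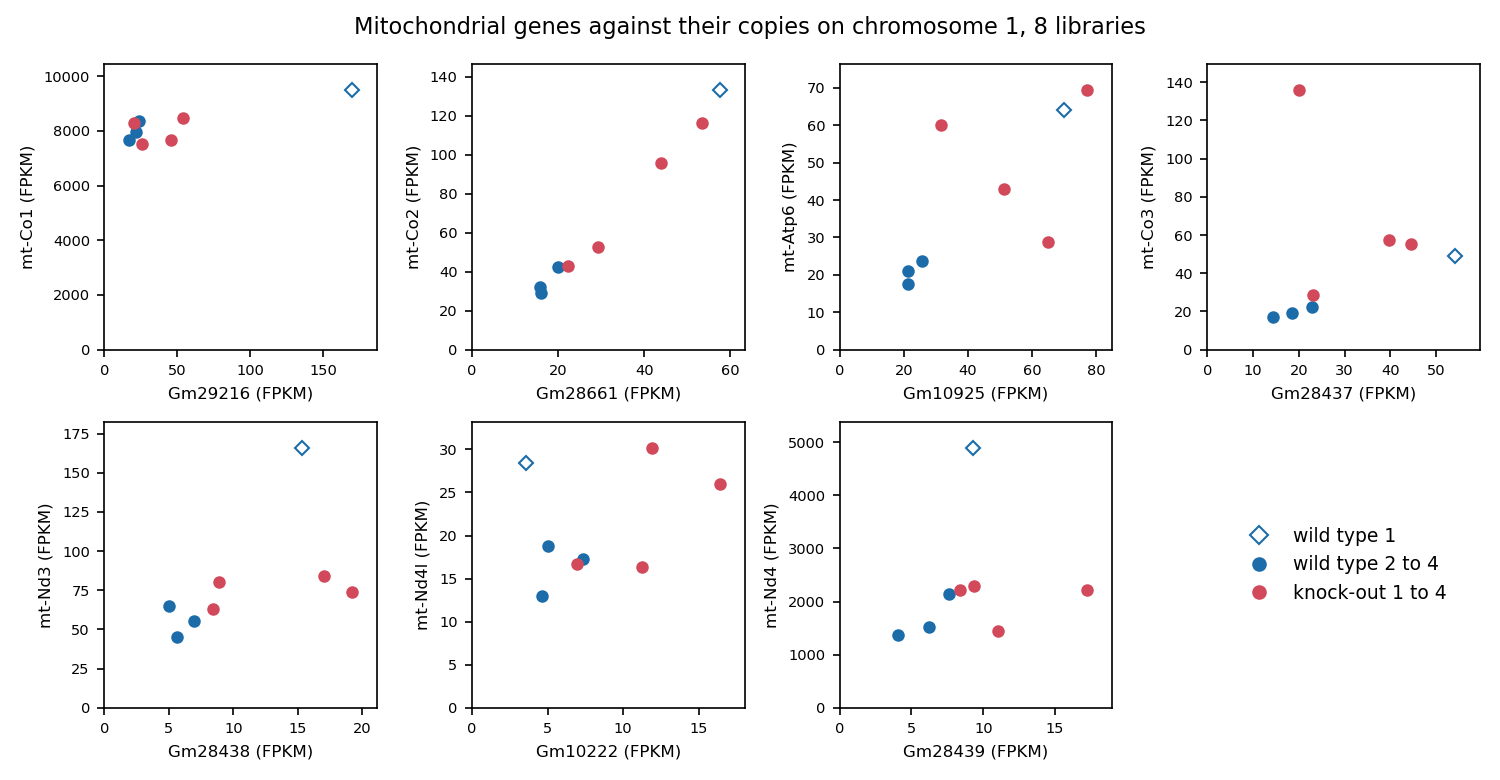
FPKM of 7 mitochondrial genes against FPKM of their annotated copies on chromosome 1, 1 panel per pair and 1 point per library. In the panel of mt-Co2 the 8 libraries lie close to 1 line through 0, while mt-Co1 stays between 7528 and 9518 FPKM over a wide range of Gm29216.

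Nuclear genes that act on the mitochondrial genome and its RNA were read from the same fit. Of 17 genes of mitochondrial DNA transcription and replication, 0 passed, where 0% of all tested genes did. In 10 of the 17 the log2 fold change was above 0 (median 0.021), against 53.1% of all tested genes. Mterf3, a negative regulator of mitochondrial transcription, was at 0.24 (SE 0.10), Polg, the catalytic subunit of the mitochondrial DNA polymerase, at 0.22 (SE 0.098), its accessory subunit Polg2 at 0.22 (SE 0.14) and Primpol, a primase and polymerase, at 0.18 (SE 0.13). Mterf3 and Polg were the 2 with unadjusted p under 0.05 in limma, a threshold met by 5.52% of all tested genes. Without wild type replicate 1 there were 0 of 17 (3.74% of all genes), with Mterf3 at 0.20 (SE 0.098) and Polg at 0.14 (SE 0.066). Tfam, which packages the genome and starts its transcription, was at -0.085 (SE 0.074), and Polrmt, the RNA polymerase, at 0.0071 (SE 0.10). Of 19 tested genes of mitochondrial RNA stability, polyadenylation, processing and decay, 0 passed and 0 had unadjusted p under 0.05 (5.52% of all tested genes). The log2 fold change was above 0 in 7 of the 19 and below 0 in 12 (median -0.042), where 53.1% of all tested genes were above 0. Fastkd2, which binds the large ribosomal RNA, was at 0.18 (SE 0.10), its relative Fastkd3 at -0.24 (SE 0.13), Hsd17b10, a subunit of mitochondrial RNase P, at -0.24 (SE 0.13) and Fastk at -0.16 (SE 0.091). Lrpprc, which stabilises mitochondrial messenger RNAs, was at 0.17 (SE 0.11), and its partner Slirp at -0.28 (SE 0.21). Without wild type replicate 1 they were at 0.071 (SE 0.071) and -0.038 (SE 0.079).

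Nuclear-encoded subunits of the respiratory complexes were read as well, those of complexes I, III, IV and V assembling with mitochondrial ones and those of complex II not. They had a log2 fold change above 0 in 3 of 39 genes and below 0 in 36, where 53.1% of all tested genes were above 0. Their median was -0.23. In limma 0 passed the adjusted threshold, where 0% of all genes did, and 3 had an unadjusted p under 0.05, where 5.52% did. These were Sdhd (-0.32, SE 0.13) of complex II, Ndufs3 (-0.27, SE 0.11) of complex I and Cyc1 (-0.29, SE 0.13) of complex III, and Sdhc followed (-0.29, SE 0.13). Wild type replicate 1 held the highest summed level of the 39 genes as well, 16500 FPKM, the remaining 7 ranging from 10820 to 13360. The lowest sum was that of wild type replicate 4, and knock-out ran from 10840 to 12370, so the groups overlapped with and without replicate 1. Once wild type replicate 1 was dropped, the median was -0.12 and 1 of 39 genes was above 0 (50.4% of all genes). An unadjusted p under 0.05 was then found for 0 of 39 (3.74% of all genes). Among 9 regulators and measures of mitochondrial content, 0 passed and 0 had unadjusted p under 0.05 (5.52% of all tested genes). Of the 9, 3 were above 0 and 6 below (median -0.048), where 53.1% of all tested genes were above 0. The outer membrane channel Vdac1 was at -0.22 (SE 0.11), the coactivator Ppargc1b at 0.70 (SE 0.36), the transcription factors Gabpa and Nrf1 at 0.33 (SE 0.19) and -0.17 (SE 0.12), and citrate synthase (Cs) at -0.050 (SE 0.084). Ppargc1b held 1.25 FPKM in wild type replicate 1 and 6.21 to 9.53 in the other 7 libraries. Without wild type replicate 1 it was at 0.25 (SE 0.11). It was then the 1 of 9 with a limma unadjusted p under 0.05, a threshold met by 3.74% of all genes.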

How the data were processed

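The authors deposited 1 table of FPKM per library; per the file headers it holds gene identifier, FPKM and locus. HISAT2, SAMtools and Cufflinks are named, per the submitters' processing notes, and their versions, options and treatment of reads with several matches were not stated there. The notes list build mm8, but the loci of all 37 members and of 91.5% of genes with a symbol equalled GENCODE M21 (GRCm38). Coordinates are 1-based. FPKM are not counts, so no count model was fitted. limma 3.58.1 in R 4.3.3 (trend and robust, two-sided) was run on log2(FPKM + 1) for genes with mean FPKM of at least 1. Benjamini-Hochberg adjustment was over all tested genes. The fit was tried on simulated data with the same spread for every gene and no outlying library, so that trial does not cover the spread seen here. Shares and sums over members got no test. Depth came from single-transcript genes of at least 3000 nt, with 98.1% to 99.3% of values within 0.15 of a whole fragment and no correction for fragment length. Assuming 200 nt fragments, it was 31960000 to 43110000 fragments. Copies were found with BLAST 2.17.0 (e-value 1e-05) and by exact windows in annotated transcripts. All 37 members were named, with up to 4 genes of lowest p from each other list, and other genes beyond these (Tfam, Polrmt, Lrpprc, Slirp, Cs) for their role after their values were seen. Members and lists were chosen with earlier results of these data known. Alternatives were other pseudocounts, filters, scalings and weights, a replicate block, and each library left out.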

Additional observations from a re-analysis of the deposited data

Results flagged for a closer look

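In 36 groups of 4 libraries (16 members and 2 shares, in each genotype), 1 library lay far from the other 3 in 11 cases, by a test that chance passes in about 1 of 20 groups. Members share libraries, so these are not independent. Wild type replicate 1 stood above its group in 6: mt-Nd1 at 7999 FPKM, mt-Co2 at 133.6, mt-Atp8 at 8.88, mt-Atp6 at 64.1, mt-Co3 at 49.1 and mt-Nd3 at 165.9. Knock-out replicate 3 stood below its group in 4: mt-Nd1 at 3457 FPKM, mt-Nd4 at 1453, the share of all 37 genes at 4.04% of total FPKM and that of the 13 messenger RNA genes at 3.39%. Wild type replicate 4 stood above its group for mt-Nd5, at 1471 FPKM.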

How the results depend on the processing

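With estimated library weights 1627 of 15061 genes (10.8%) and 2 of 16 members passed limma's threshold, mt-Nd2 (0.51, adjusted p = 0.0492) and mt-Atp8 (0.95, 0.0462); wild type replicate 1 then had a weight of 0.153 and replicate 3 of 5.09. Leaving out 1 library gave 0 to 1 genes past the threshold and 0 members. The sign turned with weights for mt-Rnr1 (0.14), mt-Rnr2 (0.20), mt-Nd1 (0.21), mt-Co1 (0.0094), mt-Nd4 (0.43), mt-Nd6 (0.45) and mt-Cytb (0.28), with quantile normalization for the same 7 (0.058, 0.078, 0.095, 0.12, 0.10, 0.023 and 0.020), and for mt-Co1 when libraries were rescaled to the non-mitochondrial total (0.0047). With 1 library left out, log2 fold changes ran from -0.41 to 0.19 for mt-Rnr1, -0.34 to 0.20 for mt-Rnr2, -0.25 to 0.13 for mt-Nd1, -0.070 to 0.28 for mt-Nd2, -0.17 to 0.45 for mt-Nd3, -0.33 to 0.29 for mt-Nd4, -0.29 to 0.25 for mt-Nd6 and -0.22 to 0.18 for mt-Cytb. mt-Co1, mt-Co2, mt-Co3, mt-Atp6, mt-Atp8, mt-Nd4l, mt-Nd5 and mt-Tp kept their sign in these. Deviations of same-numbered libraries from their group means correlated at -0.108, -0.0551, 0.0241 and 0.144, and those of differently numbered ones at -0.417 to 0.228. Wild type replicate 1 correlated most with knock-out replicate 3. With 4 libraries a group, these values cannot decide whether the numbers mark pairs. With the replicate block 0 genes and 0 members passed limma's threshold, with 790 genes and 2 members at unadjusted p under 0.05. The cause of these changes was not tested. With 4 libraries a group, and 1 of them apart from the rest, the SE of the members ran from 0.12 (mt-Co1) to 0.47 (mt-Co2) on the log2 scale. Counting error is largest for mt-Atp8 (14 to 64 estimated fragments).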
